A study of Mus musculus with 2 samples.

Results

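The insulin-like growth factor (IGF) genes measured here were the ligands Igf1 and Igf2, the receptors Igf1r and Igf2r, and the binding protein genes Igfbp2, Igfbp3, Igfbp4, Igfbp5, Igfbp6 and Igfbp7. They were chosen by name, as every probe whose gene name in the array files equals one of these 10 symbols, which gave 17 probes on 35 spots for 10 of 27962 gene names. The RNA came from 3T3-L1, an established mouse preadipocyte line that turns into fat-storing cells under hormone treatment. All cells were grown in high-glucose DMEM with 10% FCS and induced with insulin (10 µg/ml), dexamethasone (0.25 µM) and 3-isobutyl-1-methylxanthine (0.5 mM). On day 11 after induction, total RNA was taken from adipocyte-derived microvesicles (ADMs) spun out of the conditioned medium and from the donor adipocytes, 250 ng of each RNA entering the labelling. The labels name 2 biological replicates, each a pair of ADM and cell RNA on 1 two-colour array, with ADM RNA in Cy5 in replicate 1 and in Cy3 in replicate 2.

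IGF1 and IGF2 are small secreted hormones that resemble insulin. IGF1R is the tyrosine kinase that carries their growth signal, while IGF2R, also the cation-independent mannose 6-phosphate receptor, takes IGF2 and lysosomal enzymes into endosomes and sends no such signal. The IGF binding proteins hold the ligands in body fluids and in the matrix and release them when proteases cut them. Adipocytes and their precursors are known to secrete IGF1 and several binding proteins, and insulin at high concentration also acts through IGF1R.

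Among these genes, Igf2r was the one whose probe was higher in the ADM-labelled RNA, 2.82-fold relative to genes of similar signal, and a downstream probe of Igfbp4 the one that was lower, 4.01-fold. Igf1, Igf2, Igf1r, Igfbp3, Igfbp5 and Igfbp7 had log2 ratios from -0.35 to 0.37 and did not pass the test. Igfbp2 and Igfbp6 were not tested, since neither was well above background on both arrays in either RNA. Log2 ratios are given after loess, a smoothing that compares every probe with others of like brightness, so they describe relative composition rather than transcript amount. A positive value is higher in the ADM-labelled RNA, with the dyes read from the labels. In such bulk RNA, fewer vesicles or cells carrying a transcript and less of it in each cannot be told apart.

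Each of the 41174 probes was tested with limma if it was well above background, by the scanner's flag, on both arrays in at least 1 of the RNAs. This admitted 18117 probes, and 2969 of them (16.4%) passed a Benjamini-Hochberg adjusted p of 0.05, 1000 higher (5.52%) and 1969 lower (10.9%). Higher probes were 33.7% of the calls, against 97.6% with median centring in place of loess and 69.3% with the scanner's own processed signals, which set the median of all tested probes at 2.04 and 0.69 in place of 0.07. The channels differed widely in signal, and the net signal of a tested probe was a median 38.8-fold larger in the ADM-labelled RNA in replicate 1 and 7.68-fold in replicate 2. Adipocyte markers were present in both RNAs, 9 of 12 being well above background in the former and 8 in the latter on each array. The exceptions among the 12 were Adipoq, Cfd and Cidec, which were not tested, and Lep, which was seen in the ADM-labelled RNA alone. Probes went untested for flagged spots as well as for dim signal, so the untested markers are not shown to be absent. By log2 ratio, 4 of the 9 tested were lower, among them Lpl (-2.75) and Plin1 (-1.33), and 1 was higher, at a median of -0.28. With the scanner's processed signals the 4 stood at -1.17 (Lpl), -0.02 (Plin1), -0.32 (Retn) and 1.49 (Fabp4), and the higher 1, Slc2a4, at 1.76. The median of all tested probes was then 0.69, so the side of Fabp4 depended on the processing. A second tested Retn probe stood at 0.72 after loess, against -1.16 for the brightest. Of endothelial markers 0 of 6 and of macrophage markers 1 of 7 (Lyz2) passed the brightness filter. So did 1 of 5 hepatocyte markers (Tat, lower at -1.91) and 2 of 5 skeletal muscle markers (Acta1 and Des, which did not pass the test). The brightest Lyz2 probe stood at -0.04 and did not pass the test, while its other tested probe was lower at -3.30. Preadipocyte and fibroblast markers were all tested, 6 of 10 being higher by their brightest probe and 0 lower, at a median log2 ratio of 0.80. Over all genes counted in this way, 6.48% were higher and 13.4% lower. Other tested probes of Col1a1, Col3a1, Fn1 and Pdgfra stood as low as 0.06, 0.004, 0.07 and 0.11. Another Dlk1 probe was higher at 1.17, though its brightest did not pass. The part of these markers in the results below was not tested. The summed net signal of the preadipocyte and fibroblast markers was 251549 and 95158 scanner units in the ADM-labelled RNA of replicates 1 and 2. In the cell-labelled RNA it was 795 and 2876, with none at 0. The tested adipocyte markers summed to 915931 and 405926 in the ADM-labelled RNA, and to 8900 and 53510 in the cell-labelled RNA.

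Of the 17 IGF family probes, 11 from 8 genes were tested, and 2 of these 11 passed (18.2%), 1 in each direction. That share lies near the 16.4% of all tested probes. The median log2 ratio of the 11 was 0.02, beside 0.07 over all tested probes. In all 11 the net signal of the ADM-labelled RNA exceeded that of the cell-labelled RNA on both arrays, as in 89.9% of all tested probes. Between replicates, 9 of the 11 log2 ratios kept their sign, while those of Igf1r and Igfbp7 changed it. Among all tested probes 81.0% kept theirs, so this agreement was not particular to the family. No spot of these genes was saturated.

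**Figure D1:**
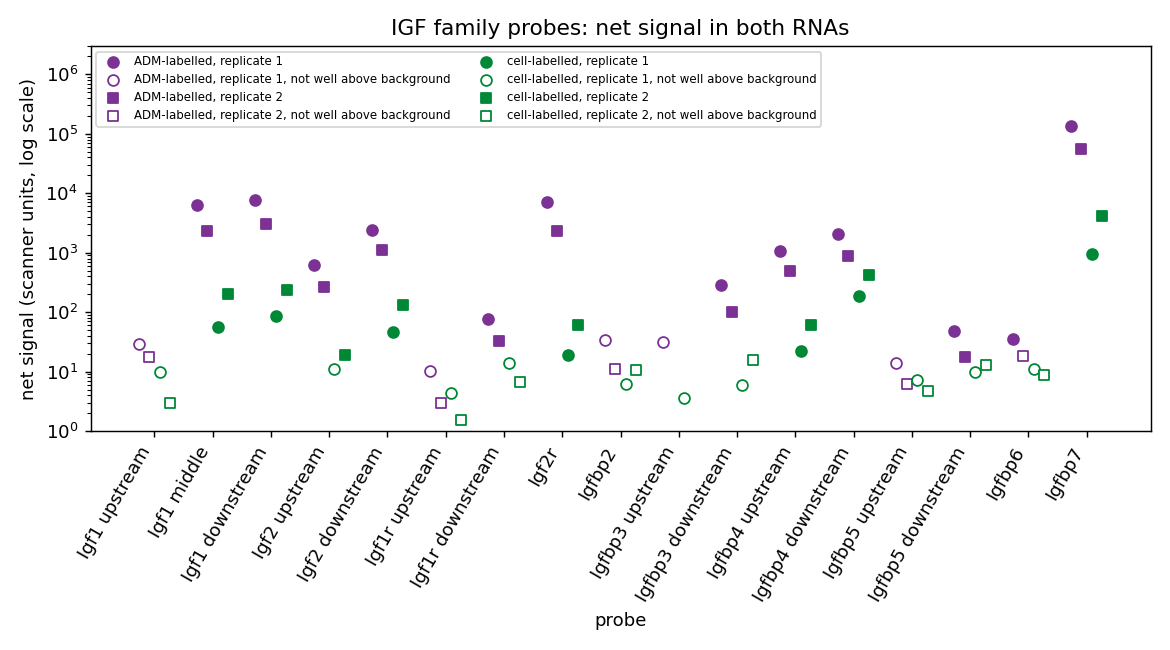
Net signal (spot minus local background, scanner units on a log scale) of the 17 IGF family probes in each RNA and replicate, with open symbols for values not well above background. Probes of a gene are ordered along its strand. For each tested probe the ADM-labelled symbols lie above the cell-labelled ones, while Igfbp2 and the upstream probes of Igf1, Igf1r, Igfbp3 and Igfbp5 have open symbols wherever they were read.

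The ligand gene Igf1 was seen in both RNAs with 2 of its 3 probes. The downstream probe (chromosome 10, 87488982 to 87489041 in mouse build mm7, plus strand) is printed on 10 spots of each array, of which 7 and 9 were used after removal of flagged spots. It gave 7697 net scanner units in the ADM-labelled and 85.7 in the cell-labelled RNA of replicate 1, with 3075 and 238 in replicate 2. Its log2 ratio was 0.20 in replicate 1 and 0.41 in replicate 2, a mean of 0.30 ± 0.15 (SD, n = 2; limma adjusted p = 0.168; 95% interval -0.04 to 0.64). Both arrays were on the ADM side of 0, but the mean did not pass the test.

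The middle Igf1 probe (chromosome 10, 87471884 to 87471943), 17098 bases upstream of the other, gave 6269 and 55.9 net units in replicate 1 and 2324 and 202 in replicate 2, ADM-labelled first. Its log2 ratios of 0.48 and 0.27 averaged 0.37 ± 0.15 (SD, n = 2; limma adjusted p = 0.117; interval 0.03 to 0.71). Both probes therefore had the same sign on both arrays. With a trended eBayes both would pass (adjusted p = 0.0113 for the downstream and 0.00180 for the middle probe). That fit gave probes of like brightness 1 shared variance and no weight to their own spread between arrays, and it passed 7754 of 18117 probes. The third Igf1 probe lies furthest upstream (chromosome 10, 87420848 to 87420907) and is annotated to a cDNA clone. It was not well above background in either RNA, with net signals of 28.8 and 9.98 in replicate 1 and 17.7 and 3.02 in replicate 2.

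Igf2, the fetal growth factor gene that is expressed from the paternal copy, was likewise seen in both RNAs. Its downstream probe (chromosome 7, 139078075 to 139078135, minus strand), also on 10 spots of each array, gave 2439 and 47.4 net units in replicate 1 and 1108 and 134 in replicate 2. The log2 ratios were -0.18 and -0.10, a mean of -0.14 ± 0.06 (SD, n = 2; limma adjusted p = 0.418; interval -0.45 to 0.17). The upstream probe, 415 bases away (139078490 to 139078549), gave 0.15 and 0.33, a mean of 0.24 ± 0.13 (limma adjusted p = 0.228; interval -0.09 to 0.57). The 2 Igf2 probes thus stood on opposite sides of 0, differing by 0.33 and 0.43 on the arrays, and neither passed the test. With the scanner's processed signals, and equally in the deposited series table, the upstream probe was at 1.35 and passed (adjusted p = 0.0301), beside a median of 0.69 over all tested probes.

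The repeated spots show how finely a single array measured these ligands. For Igf1 the 7 spots of replicate 1 ran from 0.12 to 0.30 with an SD of 0.07, and the 9 spots of replicate 2 from 0.31 to 0.51 with an SD of 0.07, so the arrays did not overlap. For Igf2 the spots ran from -0.24 to -0.08 (SD 0.06) and from -0.26 to 0.14 (SD 0.15), and the arrays overlapped. These spots share 1 labelled RNA pair per array and count as 1 value each in the test.

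**Figure D2:**
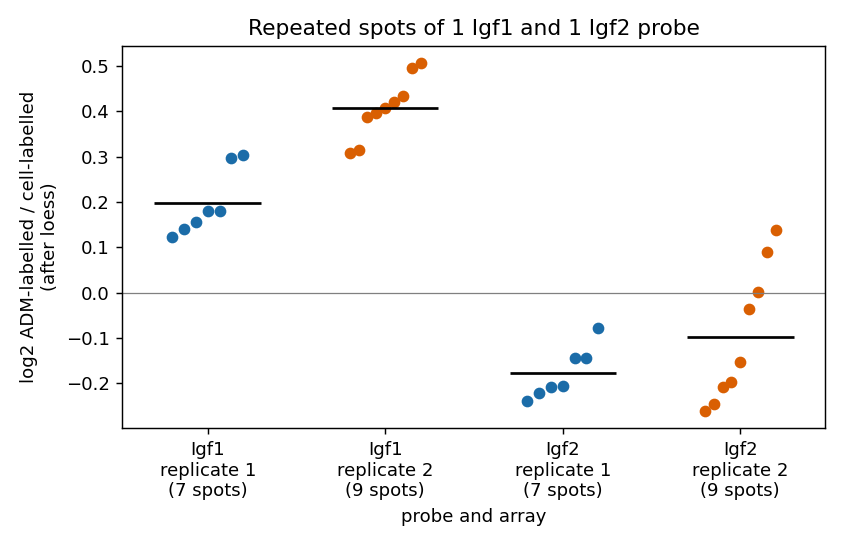
Log2 ratio after loess of each used spot of the downstream Igf1 and Igf2 probes on each array, with the mean as a black line. Igf1 spots lie above 0 on both arrays (means 0.20 and 0.41), and Igf2 spots lie around -0.18 and -0.10.

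The 2 receptors differed in how they were detected. Igf1r, the signalling receptor, gave low signal with its downstream probe (chromosome 7, 64082649 to 64082708, plus strand). Net signals were 75.6 in the ADM-labelled and 13.9 in the cell-labelled RNA of replicate 1, with 33.3 and 6.68 in replicate 2. The ADM-labelled signal was well above background on both arrays and the cell-labelled signal on neither, a state shared by 27.4% of all tested probes. The log2 ratios of -0.22 and 0.26 had opposite signs and averaged 0.02 ± 0.34 (SD, n = 2; limma adjusted p = 0.928; interval -0.43 to 0.48). Its cell-labelled signal was not well above background, so no fold is given. The upstream Igf1r probe (64043608 to 64043667), 39041 bases away, was not well above background, at 10.3 and 4.44 net units in replicate 1 and 2.97 and 1.53 in replicate 2. Another 2 probes carry Igf1r accessions under older names and were not counted as members. One of them (chromosome 7, 64088091 to 64088150) gave 0.31 and 0.09 (limma adjusted p = 0.304), and the other was not tested.

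Igf2r had the highest log2 ratio of the family. Its single probe (chromosome 17, 11399590 to 11399648, minus strand) was well above background in both RNAs on both arrays. Net signals were 7226 in the ADM-labelled and 19.1 in the cell-labelled RNA of replicate 1, with 2299.8 and 60.3 in replicate 2, so the ADM-labelled RNA was higher in both dye orientations. These are ratios of 377 and 38.1, beside the medians of 38.8 and 7.68 over all tested probes. The log2 ratios of 1.43 and 1.56 averaged 1.49 ± 0.09 (SD, n = 2), a 2.82-fold difference (limma adjusted p = 0.0111; interval 1.18 to 1.81). This value lay at percentile 99.6 of all tested probes. Against the median of all tested probes it stood at 3.15 with median centring and 1.75 with the scanner's processed signals. The call was lost with spots of outlying local background kept, where the value was 0.35 (adjusted p = 0.736) and no probe on the arrays passed. With the same spots kept but plain background subtraction in place of normexp, a setting chosen after seeing the data, Igf2r passed at 2.13 (adjusted p = 0.0490). Igf2r overlaps the antisense RNA gene Airn, of which 2 probes had values on both arrays and neither was well above background, with net signals from 4.02 to 16.5.

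The probes most like Igf2r over 4 log2 signals (2 RNAs on 2 arrays) were those of Pdgfrb, 9530068E07Rik and Tmem165, at Euclidean distances of 0.150, 0.165 and 0.208. Pdgfrb, a growth factor receptor of mesenchymal cells, had a log2 ratio of 1.59, 9530068E07Rik 1.35 and Tmem165 1.41. The likeness rests on 4 values that include the ratio itself.

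**Figure D3:**
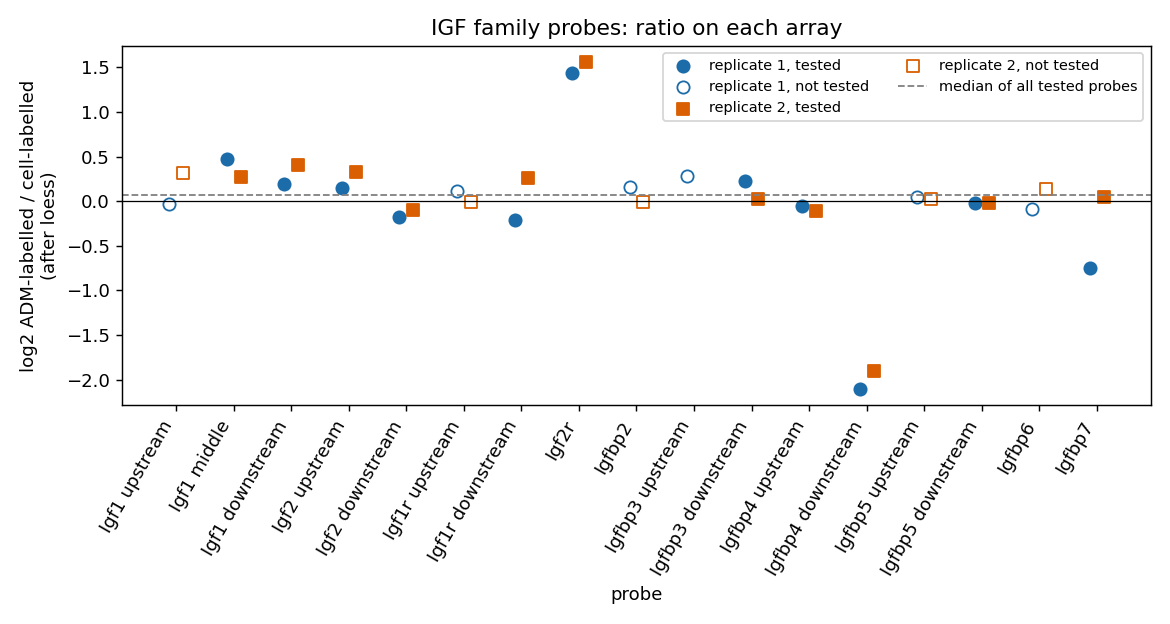
Log2 ratio (ADM-labelled over cell-labelled, after loess) of each IGF family probe on each array, filled where tested and open where not, with the median of all tested probes (0.07) as a dashed line. Igf2r lies at 1.43 and 1.56, the downstream Igfbp4 probe at -2.11 and -1.90, and replicate 1 of Igfbp7 at -0.76, with the rest within 0.48 of 0.

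Igfbp4 encodes a binding protein that restrains IGF action until the protease PAPP-A cuts it, and its 2 probes did not give the same ratio. The downstream probe (chromosome 11, 99161059 to 99161118, plus strand) gave 2061 net units in the ADM-labelled and 187 in the cell-labelled RNA of replicate 1, with 888 and 422 in replicate 2. These net ratios of 11.0 and 2.11 lie below the medians of 38.8 and 7.68 over tested probes. After loess the log2 ratios were -2.11 and -1.90, a mean of -2.004 ± 0.14 (SD, n = 2), or 4.01-fold lower in the ADM-labelled RNA (limma adjusted p = 0.00694; interval -2.34 to -1.67). The value lay at percentile 3.64 of tested probes.

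The upstream Igfbp4 probe, 3743 bases away (99157316 to 99157375), was also well above background in both RNAs on both arrays. Its net signals were 1054 and 22.0 in replicate 1 and 486 and 60.8 in replicate 2. The log2 ratios of -0.06 and -0.11 averaged -0.08 ± 0.04 (SD, n = 2; limma adjusted p = 0.604; interval -0.39 to 0.22). The downstream probe was lower by 2.05 in replicate 1 and by 1.79 in replicate 2. Of 6655 pairs of tested probes that share a gene name, 2.82% differed at least as widely in 1 direction on both arrays, and the median difference was 0.25. With the median of its probes per gene, Igfbp4 stood at -1.04 and counted as lower (limma adjusted p = 0.0200). For 2 probes the median is their mean, so the downstream probe sets that call and it gives no separate support. Exon positions of these probes were not analysed here, since the coordinates are those of mm7.

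Median centring, which puts the median of all tested probes at 2.04, gave 1.74 for the downstream Igfbp4 probe and 2.74 for the upstream one. Against that median the downstream probe was again below, at -0.30, and the upstream one above, at 0.70. Processed signals from the scanner put the downstream probe at -2.48 (adjusted p = 0.0203). The call was lost with outlying local backgrounds kept (-0.39, adjusted p = 0.736). The probes most like the downstream Igfbp4 probe over the 4 log2 signals were those of Zc3h13, Baz2a and Lig1, at distances of 0.278, 0.320 and 0.350.

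Igfbp3, the main IGF carrier of serum, was detected in the ADM-labelled RNA alone, as were 27.4% of all tested probes. Its net ratios of 47.8 and 6.52 stood beside medians of 38.8 and 7.68 over all tested probes. The downstream probe (chromosome 11, 7158599 to 7158658, minus strand) gave 284 net units in the ADM-labelled and 5.93 in the cell-labelled RNA of replicate 1, with 103 and 15.7 in replicate 2. Its log2 ratios of 0.23 and 0.02 averaged 0.13 ± 0.15 (SD, n = 2; limma adjusted p = 0.491; interval -0.21 to 0.46), and no fold is given because the cell-labelled signal was not well above background. Processed signals gave 2.29 (adjusted p = 0.0355) and median centring 1.53 (adjusted p = 0.0485), so the call depended on the scaling. The latter lies below the 2.04 of the median tested probe. The upstream probe has coordinates that span 1010 bases (7160474 to 7161483), against 59 to 61 for the other members. It was dim in replicate 1 (32.1 and 3.63 net units) and its spot was left out of replicate 2 for an outlying local background.

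Igfbp7 encodes a secreted protein that binds IGFs weakly and is also known as angiomodulin. Its probe (chromosome 5, 77280659 to 77280718, minus strand) gave 135436 net units in the ADM-labelled and 966 in the cell-labelled RNA of replicate 1, with 54865 and 4175 in replicate 2. The arrays did not agree in the log2 ratio, which was -0.76 in replicate 1 and 0.05 in replicate 2, a mean of -0.35 ± 0.57 (limma adjusted p = 0.337; interval -0.999 to 0.295). This was the widest spread between arrays among the tested probes of the family. The scanner's processed signals gave 0.84 and 0.79 on the 2 arrays (adjusted p = 0.0652), and median centring 6.51 and 3.59, so neither the sign nor the spread of Igfbp7 was settled by these data.

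The other binding protein genes gave little signal. Igfbp5, whose product also binds the matrix, was detected in the ADM-labelled RNA with its downstream probe (chromosome 1, 73100116 to 73100175, minus strand). That probe gave 48.4 and 9.73 net units in replicate 1 and 17.7 and 13.0 in replicate 2. Its log2 ratio was -0.02 on both arrays (mean -0.02 ± 0.0028; limma adjusted p = 0.895; interval -0.33 to 0.28), while processed signals gave 1.80 (adjusted p = 0.0272). The upstream Igfbp5 probe (73102653 to 73102712), 2537 bases away, was not well above background, at 13.8 and 7.25 net units and 6.34 and 4.66.

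Igfbp6, which prefers IGF2 over IGF1, was detected in replicate 1 of the ADM-labelled RNA alone (chromosome 15, 102135489 to 102135549, plus strand). Its net signals were 35.1 and 11.2 in replicate 1 and 18.2 and 8.83 in replicate 2. Igfbp2, a circulating carrier whose gene lies next to Igfbp5, was not well above background in either RNA (chromosome 1, 73093964 to 73094023, plus strand), at 34.1 and 6.20 net units in replicate 1 and 10.9 and 10.6 in replicate 2. Igfbp1, the neighbour of Igfbp3 and not a member here, was likewise dim, at 14.4 and 1.08 net units and 3.97 and 5.49. With every probe tested regardless of brightness, 16 probes of the family had a value on both arrays, 1 being higher and 1 lower. These were the same Igf2r and downstream Igfbp4 probes with unchanged log2 ratios. In that setting 3034 of all 37976 tested probes passed.

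**Figure D4:**
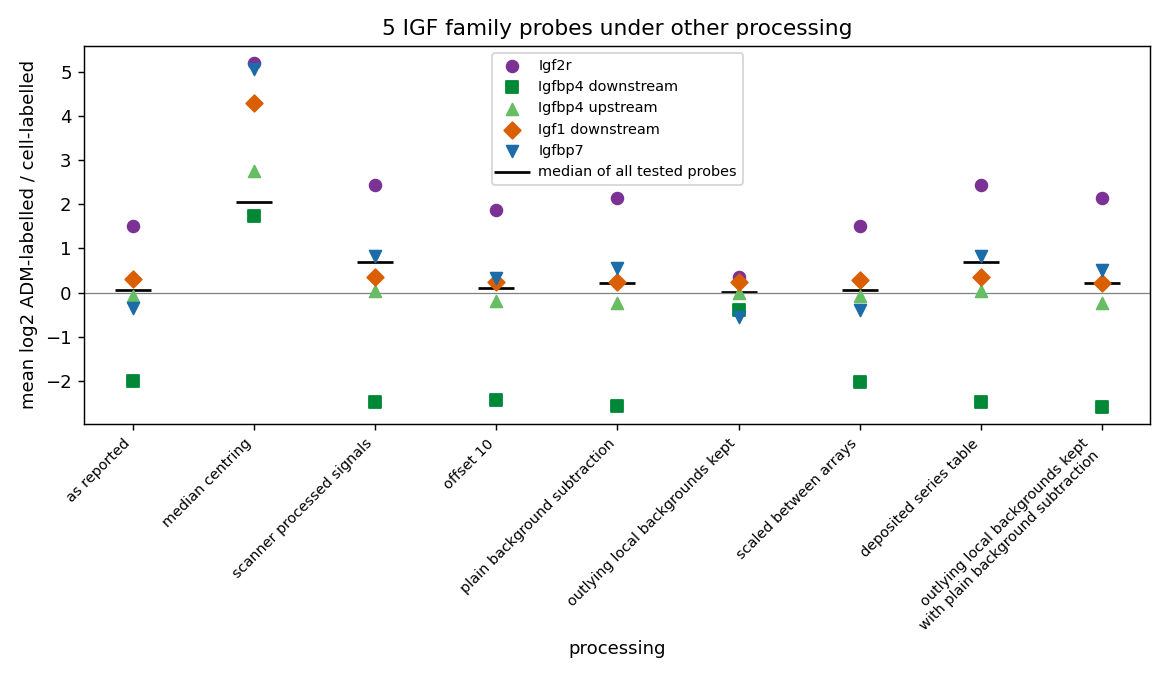
Mean log2 ratio over both arrays of 5 IGF family probes under 9 ways of processing, with the median of all tested probes as a black bar. Igf2r lies above and the downstream Igfbp4 probe below that median in each, and both come close to 0 (0.35 and -0.39) with outlying local backgrounds kept under normexp.

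Other genes of the pathway were counted by their brightest tested probe. Of 55 genes listed, 53 had a probe and 40 were tested, of which 4 were higher, 2 lower and 34 did not pass. Over all 12861 genes counted in this way, 19.8% passed, 6.48% higher and 13.4% lower. The median log2 ratio of the 40 was 0.18. Among proteases that cut IGF binding proteins, Adamts1 stood at 1.78 ± 0.30 (SD, n = 2; limma adjusted p = 0.0140) and Adam9 at 0.81 ± 0.04 (adjusted p = 0.0266). A second Adamts1 probe gave 0.36 and 1.09 and did not pass (adjusted p = 0.0990). The other protease and inhibitor genes tested did not pass by their brightest probe, among them Pappa, which encodes the Igfbp4 protease, at -0.13 ± 0.02. For Ctsd, the lysosomal protease cathepsin D, the brightest probe gave 0.63 ± 0.51 (adjusted p = 0.123) and the other 0.84 ± 0.04 (adjusted p = 0.0257).

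Downstream of the receptors, 1 adaptor gene was higher and 1 kinase gene lower. Irs1, the docking protein that IGF1R and the insulin receptor phosphorylate, had net signals of 14817 and 53.2 in replicate 1 and 4606 and 183 in replicate 2. Its log2 ratio was 1.30 ± 0.07 (SD, n = 2; limma adjusted p = 0.0138), while its other probe gave 0.19 ± 0.01 (adjusted p = 0.282). Akt1, the kinase that passes on the survival signal, was at -2.21 ± 0.07 (adjusted p = 0.00513), with net signals of 9529 and 504 in replicate 1 and 3879 and 1769 in replicate 2. Its other probe gave -0.16 and -0.85 (adjusted p = 0.171). With median centring Akt1 turned to 2.28, or 0.24 above the median of all tested probes. The insulin receptor gene Insr had 0.43 ± 0.32 (adjusted p = 0.144).

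Above the ligands, the growth hormone receptor gene Ghr was higher at 1.65 ± 0.43 (SD, n = 2; limma adjusted p = 0.0214), with net signals of 29692 and 98.2 in replicate 1 and 12451 and 295 in replicate 2. Its other tested probes gave 0.12 and 0.47 and did not pass (adjusted p = 0.479 and 0.0856). Igf2bp2, which encodes an RNA-binding protein that attaches to Igf2 mRNA, was lower at -0.61 ± 0.13 (adjusted p = 0.0471), and the related Igf2bp1 and Igf2bp3 did not pass. Igfals, the acid-labile subunit of the serum IGF complex, stood at 0.27 ± 0.17 (adjusted p = 0.209). H19, the imprinted RNA gene next to Igf2, was not well above background on both arrays in either RNA, 1 of its 2 probes giving 44.3 and 9.81 net units in replicate 1 and 17.6 and 17.8 in replicate 2. Airn, Igfbp1, Pappa, Ctsd, Insr, Igf2bp1, Igf2bp3, Igfals and H19 were named after their values were seen.

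**Figure D5:**
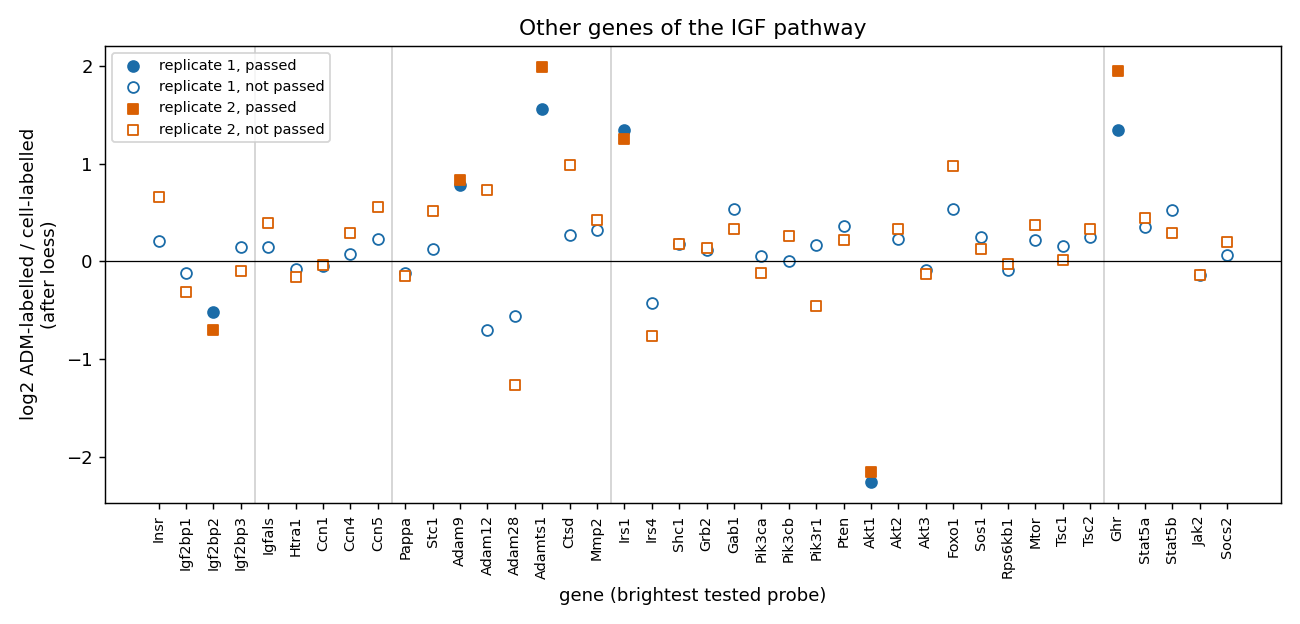
Log2 ratio after loess of the brightest tested probe of 40 other genes of the pathway on each array, filled where the gene passed the limma test. Grey lines separate receptors and mRNA-binding relatives, carriers, proteases, signalling and the growth hormone axis. Adam9, Adamts1, Irs1 and Ghr are the filled points above 0, and Igf2bp2 and Akt1 those below.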

How the data were processed

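Spot and background intensities were deposited as the scanner gave them, extracted with Feature Extraction 10.5.1.1 and annotated to mouse build mm7, per the file headers. The deposited log10 ratios and processed signals were background-subtracted, detrended and dye-normalized by that software, per the file headers. The log10 ratios of the deposited series table equal the scanner's after array 2 is turned. Spot flags (0 or 1, another unit) are also as deposited.

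Spots with an outlier flag, or an outlying local background (2303 on array 1, 1710 on array 2), were left out, the latter before normexp (offset 50). Loess gave control spots weight 0, and array 2 was turned so that ratios read ADM-labelled over cell-labelled. Each probe took the mean of its spots and was taken as well above background if 50% or more of them carried that flag. Log2 ratios were tested against 0 with limma 3.58.1 in R 4.3.3, adjusted over all tested probes (1 residual and 2.91 prior degrees of freedom). The fit was checked on simulated ratios drawn from the variance model that limma assumes. Such a check cannot show effects of dye, loess or offset. Errors are SDs over 2 arrays, whose number limits the precision. Genes of the pathway and marker lists were matched through RefSeq accessions and synonyms (GRCm38.p6), which named 22951 probes by accession; others kept the file's name. Named were all members, the pathway genes that passed, and a few marked in the text. Members and lists were chosen with earlier results of these data known. Alternatives were other normalization, background, filter, moderation and units of test.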

Additional observations from a re-analysis of the deposited data

How the results depend on the processing

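With 2 arrays, leaving out 1 leaves no test, so without replicate 1 or without replicate 2 the counts cannot be had. No passing member changed sign (Igf2r 1.43 to 1.56, downstream Igfbp4 -2.11 to -1.90). This gives no separate support, since the test already used these same values. The reported counts were 1 member probe higher and 1 lower, and 4 pathway genes higher and 2 lower. With outlying local backgrounds kept under normexp all 4 were 0; limma then passed 0 of 19807 probes, 158 having an unadjusted p under 0.05, none of them of a member. With these spots kept and plain subtraction, a setting chosen after seeing the data, 1755 probes passed, with 1 member probe each way and pathway counts of 1 and 1. Median centring gave member counts of 9 and 0 and pathway counts of 31 and 0, with all probes sharing 1 variance. The scanner's processed signals and the deposited series table each gave 4 and 1, and 15 and 3. A trended eBayes gave 3 and 1, and 17 and 4, with probes of like brightness sharing 1 variance. Pathway counts were 7 and 4 with an offset of 10, 2 and 1 with plain subtraction, and 6 and 4 with scaling between arrays. Over all probes, calls numbered 2969 as reported, 11043 with median centring, 8372 with processed signals, 4923 with an offset of 10, 1972 with plain subtraction, 4823 with scaling between arrays and 7754 with a trended eBayes. The cause was not tested. With median centring, values that passed turned sign against 0 for downstream Igf2 (3.32), both Igfbp4 probes (1.74 and 2.74) and Igfbp7 (5.05). There the median of all tested probes is 2.04, and the downstream Igfbp4 probe is still 0.30 below it. Igfbp5 also turned in a value that passed, with processed signals (1.80) and with the series table (1.80). Signs turned in values that did not pass as well, such as Igfbp7 with an offset of 10 (0.33), plain subtraction (0.56) and processed signals (0.82). Values near 0 that turned included upstream Igfbp4 with processed signals (0.03) and downstream Igf2 with outlying local backgrounds kept (0.03). Igf1r stood at -0.002 with scaling between arrays. Of 135 member probe values under 14 alternatives, 117 kept their side of the threshold and, where they passed, their sign. With 1 probe per gene, Igf1r is represented by a probe under another name, and a median of probes gives no value per probe. No paired analysis was possible because each array already holds both RNAs of a replicate and there is 1 group. Tested members dim in the cell-labelled RNA moved unequally with the offset. With an offset of 10, Igfbp3 stood at 0.39 against 0.13 as reported. Igf1r stood at 0.03 against 0.02, and Igfbp5 at -0.08 against -0.02. Plain subtraction gave 1.03 for Igfbp3, 0.35 for Igf1r and -0.16 for Igfbp5. How far the offset set these ratios was not tested.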
